A study of Homo sapiens with 6 samples.

Results

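The aminoacyl-tRNA synthetases are the enzymes that join each amino acid to its tRNA. They are described here as 38 genes, the 35 enzyme genes listed for the cytosol and the mitochondrion together with the 3 scaffold proteins of the multi-synthetase complex. The genes were selected by name, as the rows of the deposited count table whose Ensembl identifier carries one of the 38 symbols. All 38 were found among the 60605 genes of the table, and all 38 were among the 17371 genes with enough counts to be tested. Of these, 17 encode cytosolic enzymes, 16 mitochondrial enzymes, 2 enzymes that serve both compartments and 3 scaffold proteins. The aspartyl-tRNA synthetases were not analysed here.

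The study measured polyadenylated RNA in HuCCT-1, a human cell line derived from bile duct cancer (cholangiocarcinoma). In 3 libraries, named JNJ here, the cells had been kept for 4 days in 6 nM JNJ-64619178, which blocks PRMT5, an enzyme that methylates arginine residues of proteins. In the other 3 libraries, named DMSO here, the cells had received an equal volume of the solvent dimethyl sulfoxide. The comparison shows how the RNA of these genes differed with the inhibitor in 1 cell line at 1 dose and 1 time. Whether libraries within a group are independent cultures is not stated in the labels, and the p-values therefore reflect only the variation among these libraries, which may be technical.

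Each aminoacyl-tRNA synthetase recognises 1 amino acid and its tRNAs, uses ATP to activate the amino acid and transfers it to the end of the tRNA, which then enters the ribosome. Most amino acids have a cytosolic and a mitochondrial enzyme, both encoded in the nucleus, and the mitochondrial one charges the tRNAs used to translate the respiratory chain subunits encoded by mitochondrial DNA. In animal cells several cytosolic enzymes are held with the scaffold proteins AIMP1, AIMP2 and EEF1E1 in the multi-synthetase complex. When amino acids run short, the transcription factor ATF4 raises many of the cytosolic enzyme genes together.

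The libraries held 24315685, 28224911 and 23931991 counts in JNJ and 30194024, 28133746 and 30691914 in DMSO. The 38 genes took 0.549 to 0.560% of all counts in the JNJ libraries and 0.485 to 0.505% in the DMSO libraries. RNA encoded by mitochondrial DNA took 16.8 to 18.9% of the counts in JNJ and 17.8 to 20.6% in DMSO, and its part in the results below was not tested. PRMT5 itself averaged 76.8 ± 1.18 CPM (counts scaled to library size) in JNJ and 73.1 ± 1.09 CPM in DMSO (SD, n = 3 each), and edgeR's quasi-likelihood test gave an adjusted p of 0.25. Of 10 biliary epithelium markers 9 were expressed enough to be tested, with a summed level of 4721 to 4974 CPM in JNJ and 5697 to 6111 CPM in DMSO. SPP1, the tenth, had 8 counts over all 6 libraries. Of 8 hepatocyte markers 2 were expressed enough to be tested, SERPINA1 with 59266 and CYP2E1 with 5768 counts over all 6 libraries, while ALB had 32 and TTR 0. The summed level of the list was 393 to 432 CPM in JNJ and 375 to 377 CPM in DMSO, and CYP2E1 rose by 0.24 on the log2 scale. Of 6 leukocyte markers 1 was tested, CD14 with 471 counts, which rose by 0.52, while PTPRC had 2 counts, and the list summed to 3.54 to 3.97 CPM in JNJ and 2.17 to 3.16 CPM in DMSO. Of 7 fibroblast and endothelial markers 2 were tested and did not pass, with sums of 1.88 to 2.59 CPM in JNJ and 1.11 to 1.62 CPM in DMSO. The part of these markers in the results was not tested.

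Levels are CPM after scaling of the library totals with trimmed means of M values (TMM), and a change is the log2 ratio of JNJ over DMSO, so that a positive value is higher in JNJ. A gene is said to have risen or fallen where edgeR's quasi-likelihood test gave a p-value under 0.05 after Benjamini-Hochberg adjustment over all 17371 genes. By this rule 13 of the 38 genes rose, 2 fell and 23 did not pass. Among all genes tested 20.0% rose and 17.1% fell, 37.1% in all. The share called in either direction, 39.5% of the 38 genes, was near that of all genes, while 34.2% rose and 5.26% fell. With upper-quartile scaling, which moved the median log2 change of all genes to -0.06, the split was 10 higher and 10 lower, against 16.1% and 23.6% of all genes. The changes below are with TMM scaling unless another is named.

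Of the 17 cytosolic enzymes 9 rose, led by LARS1, and SARS1 fell, while with upper-quartile scaling 6 rose and 3 fell. The median log2 change of the cytosolic enzymes was 0.13, and 0.10 without LARS1, beside 0.00 for all genes tested. The 16 mitochondrial enzymes had a median of 0.01, with 3 higher and 1 lower, and with upper-quartile scaling a median of -0.05, with 3 higher and 5 lower. The median SE of the log2 change was 0.077 for the mitochondrial and 0.045 for the cytosolic enzymes, so small changes were harder to call among the mitochondrial ones. Summed over the 17 cytosolic enzymes the level was 4491, 4483 and 4513 CPM in the JNJ libraries and 3880, 3902 and 3930 CPM in the DMSO libraries. The groups did not overlap, the ratio of the means was 1.15, and LARS1 alone made up 57.5% of the summed difference. Without LARS1 the sums were 3713, 3747 and 3732 CPM in JNJ and 3463, 3480 and 3495 CPM in DMSO, a ratio of 1.07. The summed mitochondrial enzymes reached 444, 441 and 438 CPM in JNJ and 435, 445 and 437 CPM in DMSO, and here the groups overlapped. All 3 JNJ libraries lay above all 3 DMSO libraries for 15 of the 38 genes, against 24.7% of all genes tested, and below them for 5, against 22.2%. The groups were thus apart for 20 of 38 genes, beside 47.0% of all genes tested, and overlapped for 18.

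**Figure D1:**
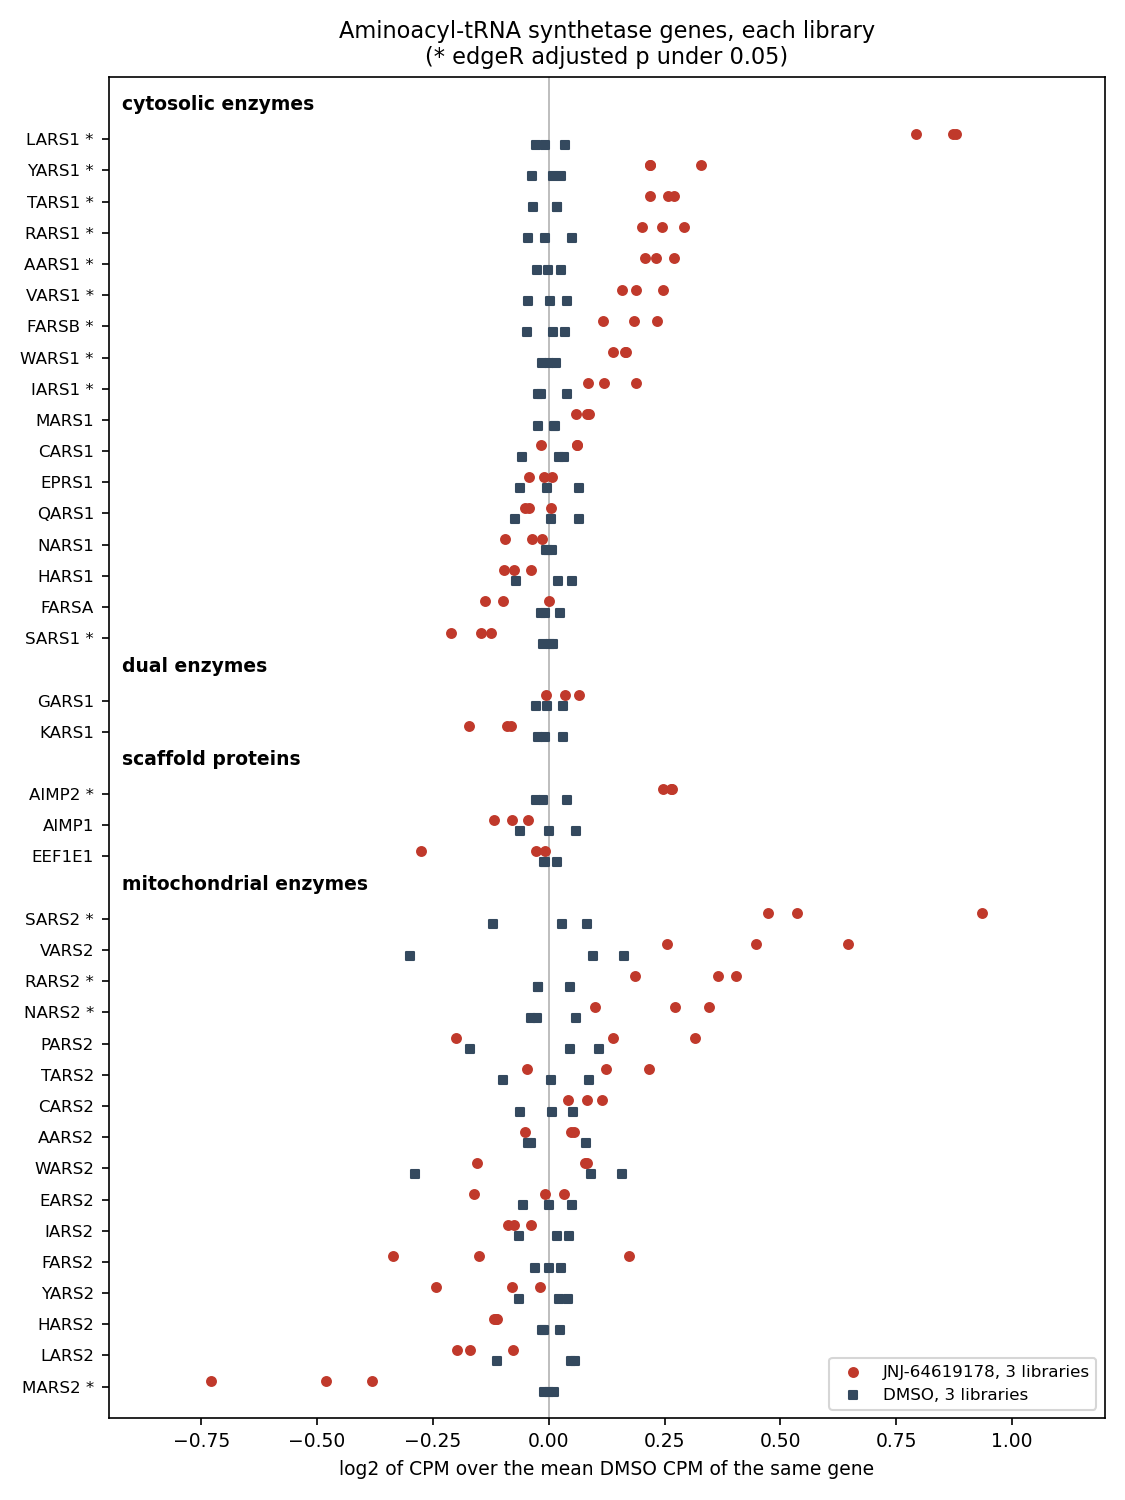
Each point is 1 library, plotted as the log2 of its CPM over the mean DMSO CPM of the same gene, for the 38 genes by role, with JNJ above DMSO in each row and an asterisk at an adjusted p under 0.05. LARS1 stands at the top of the cytosolic enzymes with a log2 change of 0.85, and MARS2 at the bottom of the mitochondrial enzymes with -0.53.

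LARS1 (ENSG00000133706) encodes cytosolic leucyl-tRNA synthetase, a core enzyme of the complex that is also known as a sensor of leucine for the growth kinase mTORC1. The gene lies on the minus strand of chromosome 5 at 146113038 to 146182660 (GRCh38, GENCODE 29) and is made up of 33 merged exon blocks. Its level was 778, 736 and 781 CPM in the JNJ libraries and 417, 423 and 435 CPM in the DMSO libraries. Every JNJ library was far above every DMSO library, and the means were 765 ± 25.1 CPM in JNJ and 425 ± 9.46 CPM in DMSO (SD, n = 3 each). The log2 change was 0.85 (SE 0.04), a 1.80-fold rise, with an adjusted p of 4.12e-13 by edgeR's quasi-likelihood test. In all, 38 genes of the 17371 had a smaller p and 1126 a larger log2 change in size. Under the 13 alternatives of scaling, filter, test and left-out library the log2 change lay between 0.79 and 0.88. Exons of other genes covered 0.517% of its exonic sequence on either strand.

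Other enzymes of the complex moved less. RARS1, the arginyl enzyme, was at 101, 107 and 104 CPM in JNJ and at 87.2, 90.7 and 84.98 CPM in DMSO, without overlap, a log2 rise of 0.25 (SE 0.05). IARS1, the isoleucyl enzyme, was at 538, 501 and 513 CPM in JNJ and 467, 465 and 485 CPM in DMSO. The groups did not overlap and the log2 change was 0.13 (SE 0.04), with an adjusted p of 0.0223 by edgeR's quasi-likelihood test, but the call of IARS1 was the least stable of the 15. Its adjusted p was 0.0849 without JNJ replicate 1, 0.0551 without JNJ replicate 3, 0.10 without DMSO replicate 1, 0.137 without DMSO replicate 2, 0.055 with the replicate number as a block and 0.206 with upper-quartile scaling, all by edgeR's quasi-likelihood test.

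EPRS1, the fused glutamyl and prolyl enzyme, was at 279, 269 and 275 CPM in JNJ and 265, 276 and 290 CPM in DMSO, and these groups overlapped, with a log2 change of -0.01 (SE 0.04). LARS1, IARS1 and EPRS1 each have 33 exon blocks, the same exon number beside changes of 0.85, 0.13 and -0.01. Across the 38 genes Spearman's rho between exon blocks and log2 change was 0.41, and between DMSO level and log2 change 0.11. Both are descriptions across genes that share the same 6 libraries and are not independent replicates.

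MARS1, the methionyl enzyme, which also charges the initiator tRNA, had a log2 change of 0.08 (SE 0.04) and an adjusted p of 0.163 by edgeR's quasi-likelihood test, although its 3 JNJ libraries (389, 395 and 396 CPM) lay above its 3 DMSO libraries (376, 376 and 367 CPM). QARS1, the glutaminyl enzyme, had a log2 change of -0.03 with overlapping groups. In all, 4 of the 10 genes of the complex rose by edgeR's quasi-likelihood test (LARS1, RARS1, IARS1 and the scaffold gene AIMP2) and none fell. With only 10 genes these counts say little beside the 20.0% of all genes tested that rose and the 17.1% that fell. At an unadjusted p under 0.05 there were 5, and the share of all genes at that p was not computed. With upper-quartile scaling 3 rose and 2, KARS1 and AIMP1, fell.

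Outside the complex, 6 of 11 cytosolic enzymes rose, by a log2 change of 0.16 to 0.26, and 1 fell, while with upper-quartile scaling 4 rose and 3 fell. Of all genes tested 20.0% rose and 17.1% fell with TMM scaling. YARS1, the tyrosyl enzyme, was at 255, 275 and 255 CPM in JNJ and 223, 214 and 220 CPM in DMSO. TARS1, the threonyl enzyme, was at 439, 435 and 424 CPM in JNJ and 355, 368 and 368 CPM in DMSO. AARS1, the alanyl enzyme, which also edits tRNAs mischarged with serine or glycine, was at 353, 368 and 358 CPM in JNJ and 311, 305 and 300 CPM in DMSO. In these 3 genes every JNJ library exceeded every DMSO library, and the log2 changes were 0.26, 0.25 and 0.24 for YARS1, TARS1 and AARS1 (SE 0.05, 0.04 and 0.04).

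VARS1, the valyl enzyme, was at 133, 141 and 136 CPM in JNJ and 119, 115 and 122 CPM in DMSO, a log2 rise of 0.20. WARS1, the tryptophanyl enzyme, an interferon-inducible gene in many cell types, was at 236, 240 and 240 CPM in JNJ and 216, 214 and 212 CPM in DMSO. Both were free of overlap, and WARS1 had a log2 rise of 0.16 and an adjusted p of 0.00491 in TMM-scaled data and 0.073 with upper-quartile scaling by edgeR's quasi-likelihood test. FARSA and FARSB encode the catalytic alpha and the beta subunit of the same phenylalanyl enzyme, a tetramer of both. FARSB was at 64.3, 67.4 and 69.7 CPM in JNJ and 60.8, 57.5 and 59.7 CPM in DMSO, a log2 rise of 0.18 (SE 0.05), whereas FARSA was at 48.0, 51.3 and 46.6 CPM in JNJ and 51.0, 50.8 and 52.2 CPM in DMSO, with overlap and a log2 change of -0.08 (SE 0.05). The difference between these subunits was not tested. The adjusted p of FARSB was 0.00731, and it was 0.0552 without JNJ replicate 3, 0.0718 without DMSO replicate 2 and 0.067 with upper-quartile scaling, by edgeR's quasi-likelihood test.

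SARS1, the seryl enzyme, which also loads serine onto the selenocysteine tRNA, was the cytosolic enzyme that fell. It was at 260, 272 and 276 CPM in JNJ and 299, 303 and 302 CPM in DMSO. All JNJ libraries were lower than all DMSO libraries, with a log2 change of -0.16 (SE 0.04) and an adjusted p of 0.00487 by edgeR's quasi-likelihood test. This call held in all 13 alternatives, with log2 changes from -0.22 to -0.13. The other 4 cytosolic enzymes outside the complex, CARS1, NARS1, HARS1 and FARSA, did not pass, with log2 changes from -0.08 to 0.04. With upper-quartile scaling HARS1 and FARSA were called lower (adjusted p 0.0345 and 0.0486, edgeR's quasi-likelihood test).

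Described by the 2 structural classes of synthetase, 6 of 9 class I cytosolic enzymes rose and 0 fell by edgeR's quasi-likelihood test, with a median log2 change of 0.16. At an unadjusted p under 0.05 there were 6 as well, and the share of all genes at that p was not computed. The shares of all genes tested were 20.0% rising and 17.1% falling. Of 7 class II cytosolic enzymes 3 rose and 1 fell, with a median of -0.05. EPRS1, which joins a class I and a class II enzyme in 1 chain, is in neither count. With upper-quartile scaling 4 class I enzymes rose, and 2 class II enzymes rose and 3 fell. The classes were not compared by a test.

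**Figure D2:**
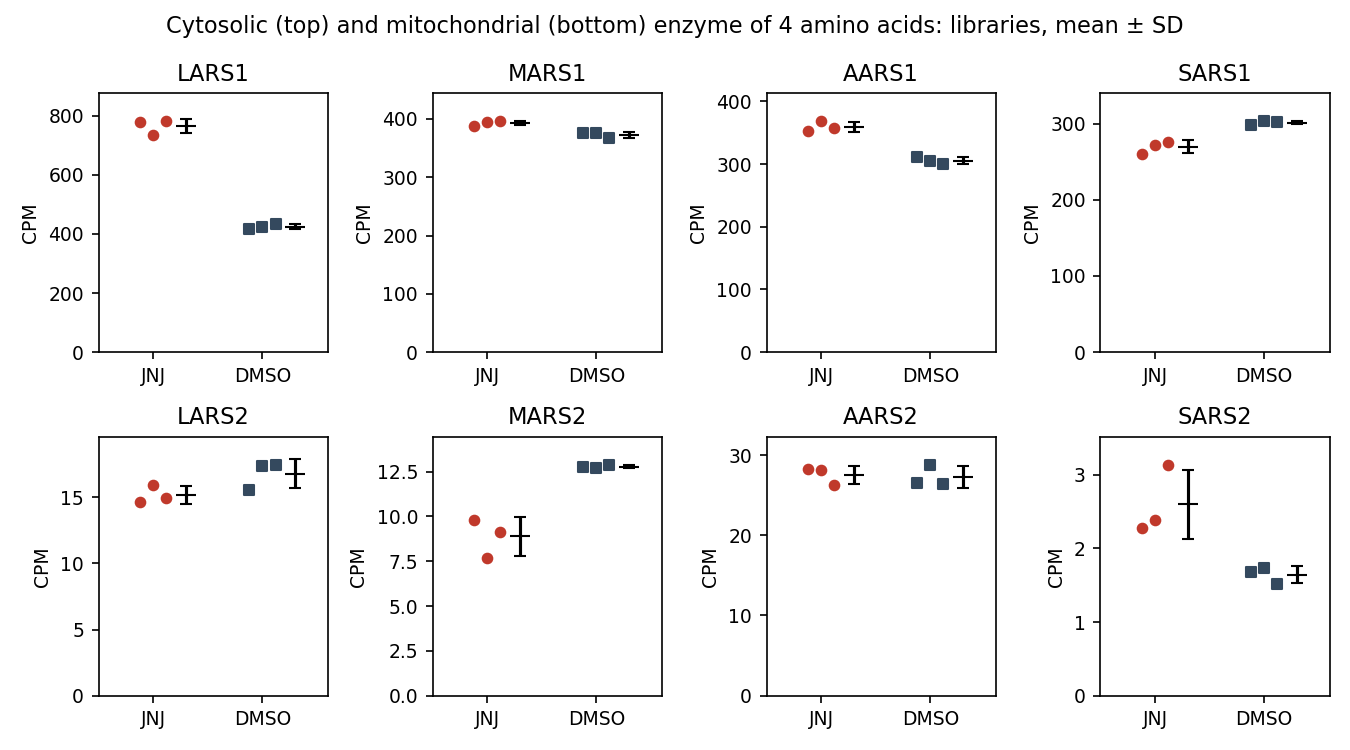
CPM of the cytosolic (top) and mitochondrial (bottom) enzyme for leucine, methionine, alanine and serine, with 1 point per library and the mean with its SD beside it, JNJ left and DMSO right, each axis starting at 0. LARS1 is higher in all 3 JNJ libraries, while MARS2 and SARS1 are lower in all 3.

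Because the ATF4 program is the best known shared control of the cytosolic enzymes, the promoters were searched for the letters of the C/EBP-ATF response element, TGATGCAA, on both strands. RefSeq windows (GRCh38.p14) from 250 bases before to 50 bases after the start were at hand for 33 of the 38 genes. Those without an entry were LARS1, VARS1, YARS1, AARS2 and VARS2. The letters occurred in 0.866% of 35116 windows, or 1.08% of the 27305 genes searched, since a gene can have several windows. They occurred in 6 of the 33 genes, all 6 of them cytosolic enzymes. The 30 bases around each match follow on the strand of the gene, with the element in capitals, as TGATGCAA or its reverse complement TTGCATCA.
AARS1 (chr16:70289675-70289704, minus): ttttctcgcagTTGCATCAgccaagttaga
CARS1 (chr11:3057407-3057436, minus): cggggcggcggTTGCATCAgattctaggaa
IARS1 (chr9:92293692-92293721, minus): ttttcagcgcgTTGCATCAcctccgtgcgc
MARS1 (chr12:57488053-57488082, plus): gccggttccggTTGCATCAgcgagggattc
NARS1 (chr18:57621804-57621833, minus): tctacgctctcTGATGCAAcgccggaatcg
TARS1 (chr5:33440956-33440985, plus): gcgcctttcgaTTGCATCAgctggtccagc

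Of these 6 genes AARS1, TARS1 and IARS1 rose, by 0.24, 0.25 and 0.13 on the log2 scale, while MARS1, CARS1 and NARS1 did not pass, at 0.08, 0.04 and -0.05. Their median log2 change was 0.10, with 5 of the 6 above 0, and differences among them were not tested. Among the 8 cytosolic enzymes that have a window without these letters 3 rose and 1 fell, with a median of -0.02. The cytosolic enzymes without a window, LARS1, YARS1 and VARS1, all rose, by 0.85, 0.26 and 0.20, and are in neither set. Either median could differ if they were placed. With upper-quartile scaling 2 of the 6 rose, and 1 of the 8 rose and 3 fell. The sets were not compared by a test, and with TMM scaling 20.0% of all genes tested rose and 17.1% fell. A match is a run of letters in a window and not a measured binding site. The looser form TGATGNAA occurred in 4.46% of all genes searched and also in GARS1 and YARS2, neither of which passed the test. Other motifs searched in the same windows were CACGTG (5 members, 8.77% of all genes searched), the palindromic NRF1 motif (7 members, 6.98%), CCGGAAG (17 members, 12.2%), the interferon-stimulated response element (2 members, 4.38%) and TTCNNNGAA (5 members, 9.38%).

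GARS1 and KARS1 encode the glycyl and lysyl enzymes of both compartments, and KARS1 is also part of the complex. GARS1 was at 418, 406 and 426 CPM in JNJ and 400, 406 and 416 CPM in DMSO, with overlap and a log2 change of 0.03 (SE 0.04). KARS1 was at 84.4, 89.8 and 89.3 CPM in JNJ and 93.6, 94.6 and 97.1 CPM in DMSO, all JNJ libraries lower. Its log2 change of -0.11 (SE 0.05) lay just outside the threshold, with an adjusted p of 0.06 by edgeR's quasi-likelihood test. KARS1 passed as lower without JNJ replicate 2 (0.0407), with relative log expression scaling (0.0451), with a filter at 1 CPM (0.0488) and with upper-quartile scaling (0.0055), these values being adjusted p-values of the same edgeR test.

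The 3 scaffold proteins carry no catalytic site and differed among themselves. AIMP2, on which the complex is built, was at 32.2, 32.3 and 31.8 CPM in JNJ and 26.3, 27.6 and 26.6 CPM in DMSO, without overlap. Its log2 rise was 0.26 (SE 0.06), and the adjusted p was 0.00127 by edgeR's quasi-likelihood test. Exons of other genes lie across 28.9% of its exonic sequence, on the opposite strand, and the sources used here do not say whether the counting used strand. AIMP1, whose secreted fragment acts as a cytokine, had a log2 change of -0.08 with overlapping groups. EEF1E1, also known as AIMP3, was at 5.45, 6.48 and 6.57 CPM in JNJ and 6.57, 6.56 and 6.68 CPM in DMSO, with overlap. In GENCODE 29, 18.7% of the exonic sequence of EEF1E1 is shared with another gene on the same strand, so its counts are uncertain.

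Genes can be set side by side only roughly per kilobase of exonic sequence, since the merged exons of a gene are not the length of its transcripts. On this scale the cytosolic enzymes were the more abundant, with a median of 37.5 CPM per kilobase in JNJ and 34.2 in DMSO. The mitochondrial enzymes had medians of 4.79 CPM per kilobase in JNJ and 5.28 in DMSO. Each of these medians lies in a wide gap between neighbours, AARS2 (6.41) and EARS2 (3.16) in JNJ and RARS2 (6.32) and MARS2 (4.23) in DMSO. Their difference is therefore no measure of change, and the median log2 change of the mitochondrial enzymes was 0.01. GARS1 was the highest of the 38 in both groups, at 100.3 ± 2.45 CPM per kilobase in JNJ and 98.1 ± 1.96 in DMSO (SD, n = 3 each). LARS1 was at 94.3 ± 3.09 CPM per kilobase in JNJ, the second rank, and at 52.3 ± 1.17 in DMSO, rank 7, where it did not differ from its neighbours MARS1 (53.0 ± 0.765) and EPRS1 (50.8 ± 2.26) beyond the spread. SARS1 held rank 5 in JNJ with 70.3 ± 2.19 CPM per kilobase and rank 2 in DMSO with 78.5 ± 0.61. VARS2 was the lowest in both groups, at 0.322 CPM per kilobase in JNJ and 0.234 in DMSO. Without division by length SARS2 was lower than VARS2, at 2.60 against 2.72 CPM in JNJ and 1.64 against 1.98 CPM in DMSO. Among the mitochondrial enzymes IARS2 was the highest, at 27.1 CPM per kilobase in JNJ and 28.3 in DMSO.

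**Figure D3:**
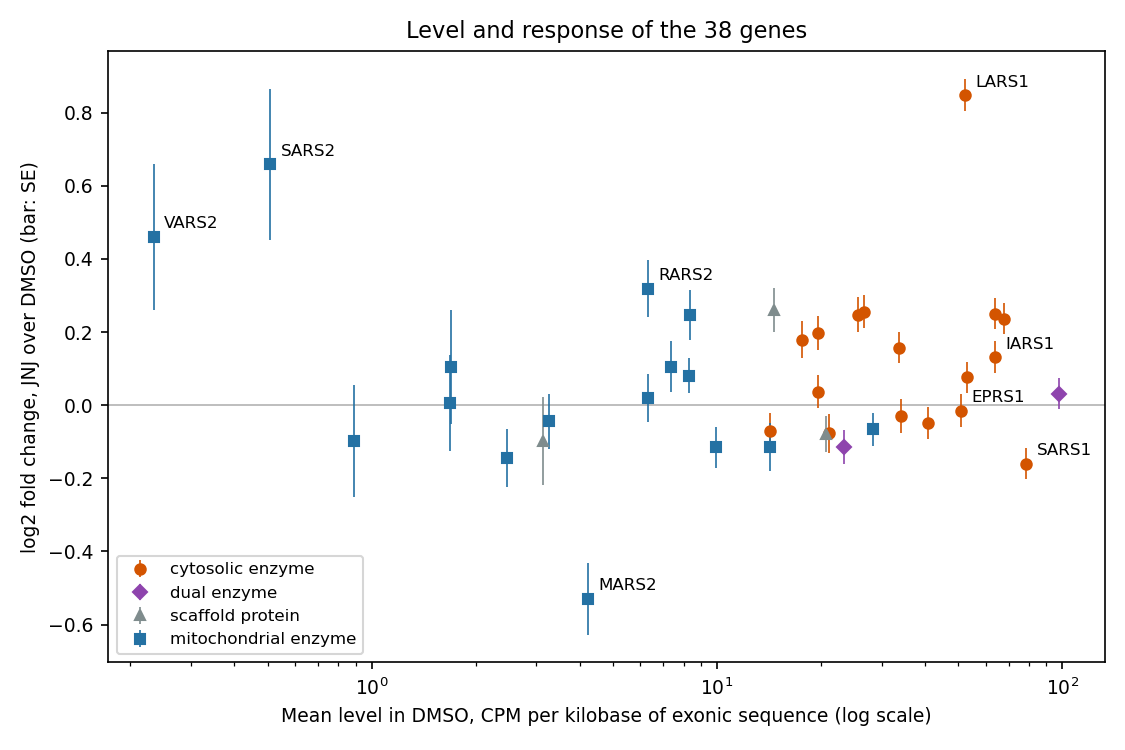
The log2 change of JNJ over DMSO with its SE is plotted against the mean DMSO level in CPM per kilobase of exonic sequence (log axis) for the 38 genes, by role. LARS1 stands apart among the abundant cytosolic enzymes, and SEs are largest for the least abundant genes, SARS2 (0.21) and VARS2 (0.20).

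Of the 16 mitochondrial enzymes MARS2 fell, RARS2, NARS2 and SARS2 rose and 12 did not pass. MARS2, the methionyl enzyme whose product also provides the formylated initiator, is a single-exon gene on the plus strand of chromosome 2 at 197705369 to 197708387 (GRCh38, GENCODE 29). It was at 9.80, 7.70 and 9.15 CPM in JNJ and at 12.8, 12.7 and 12.9 CPM in DMSO. All JNJ libraries were lower, with a log2 change of -0.53 (SE 0.10) and an adjusted p of 1.43e-04 by edgeR's quasi-likelihood test. The range over the 13 alternatives was -0.61 to -0.43, each past the threshold.

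RARS2, the arginyl enzyme, mutated in a form of pontocerebellar hypoplasia, was at 20.7, 18.3 and 21.3 CPM in JNJ and 15.8, 16.6 and 15.8 CPM in DMSO. NARS2, the asparaginyl enzyme, was at 31.8, 33.5 and 28.2 CPM in JNJ and 27.4, 25.9 and 25.7 CPM in DMSO. Neither gene's groups overlapped, and the log2 rise was 0.32 (SE 0.08) for RARS2 and 0.25 (SE 0.07) for NARS2.

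SARS2, the mitochondrial seryl enzyme, was at 2.28, 2.38 and 3.14 CPM in JNJ and 1.68, 1.74 and 1.51 CPM in DMSO, without overlap. The log2 change was 0.66 (SE 0.21) with an adjusted p of 0.0143 by edgeR's quasi-likelihood test. Without JNJ replicate 3, the highest library, its log2 change was 0.51 (adjusted p 0.0975), and without DMSO replicate 3, the lowest, it was 0.59 (adjusted p 0.0555), by the same edgeR test. In GENCODE 29, 46.2% of its exonic sequence is shared with another gene on the same strand, so its counts are uncertain. VARS2, the valyl enzyme, was at 2.36, 2.695 and 3.09 CPM in JNJ and 2.11, 2.21 and 1.61 CPM in DMSO. The groups did not overlap, the log2 change was 0.46 (SE 0.20) and the adjusted p was 0.0738 by edgeR's quasi-likelihood test, and 22.0% of its exonic sequence is shared in the same way.

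The other mitochondrial enzymes lay between -0.15 (LARS2) and 0.11 (PARS2) on the log2 scale. LARS2, the leucyl enzyme, was at 14.6, 15.9 and 14.9 CPM in JNJ and 15.6, 17.4 and 17.5 CPM in DMSO, with overlap, where its cytosolic partner LARS1 rose. HARS2, the histidyl enzyme, was at 34.4, 34.2 and 34.3 CPM in JNJ and 37.8, 36.9 and 36.7 CPM in DMSO, all JNJ libraries lower, with a log2 change of -0.12 (SE 0.06) and an adjusted p of 0.11 by edgeR's quasi-likelihood test. HARS1 and HARS2 are transcribed away from each other from overlapping starts, and their log2 changes were -0.07 and -0.12. With upper-quartile scaling HARS2, IARS2, LARS2 and YARS2 were called lower too, 5 mitochondrial enzymes in all with MARS2, beside the same count of 3 higher.

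The ratio of the cytosolic to the mitochondrial enzyme of the same amino acid, taken within a library, does not depend on how libraries are scaled. Of 17 such pairs, 6 had a higher ratio in all 3 JNJ libraries than in all 3 DMSO libraries, 2 had a lower one and 9 overlapped. EPRS1 and FARS2 each enter 2 pairs, so these are not all separate genes. The share of other gene pairs that were apart was not computed, and for single genes it was 47.0% of all genes tested. The counts of pairs are therefore a description only. An exact two-sided permutation test of 3 against 3 libraries cannot go below p = 0.10, and the smallest value after Benjamini-Hochberg adjustment over the 17 pairs was 0.213, so no pair passed. The log2 ratio of LARS1 over LARS2 was 5.73, 5.53 and 5.71 in JNJ and 4.74, 4.61 and 4.64 in DMSO, a difference of 0.99. That of MARS1 over MARS2 was 5.31, 5.68 and 5.44 in JNJ and 4.88, 4.89 and 4.83 in DMSO, a difference of 0.61. In the methionine pair the mitochondrial enzyme was the member that passed the test, and in the leucine pair the cytosolic one.

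The remaining pairs with a higher ratio in JNJ were tyrosine (0.37), the beta subunit for phenylalanine (0.28), alanine (0.22) and isoleucine (0.20). The alpha subunit for phenylalanine, FARSA, over the same FARS2 had overlapping groups and a difference of 0.03. Serine ran the other way, with a log2 ratio of SARS1 over SARS2 of 6.84, 6.84 and 6.46 in JNJ and 7.48, 7.45 and 7.64 in DMSO, a difference of -0.81. Asparagine was also lower in JNJ, at -0.29. Arginine, where both enzymes rose, had overlapping groups and a difference of -0.07.

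**Figure D4:**
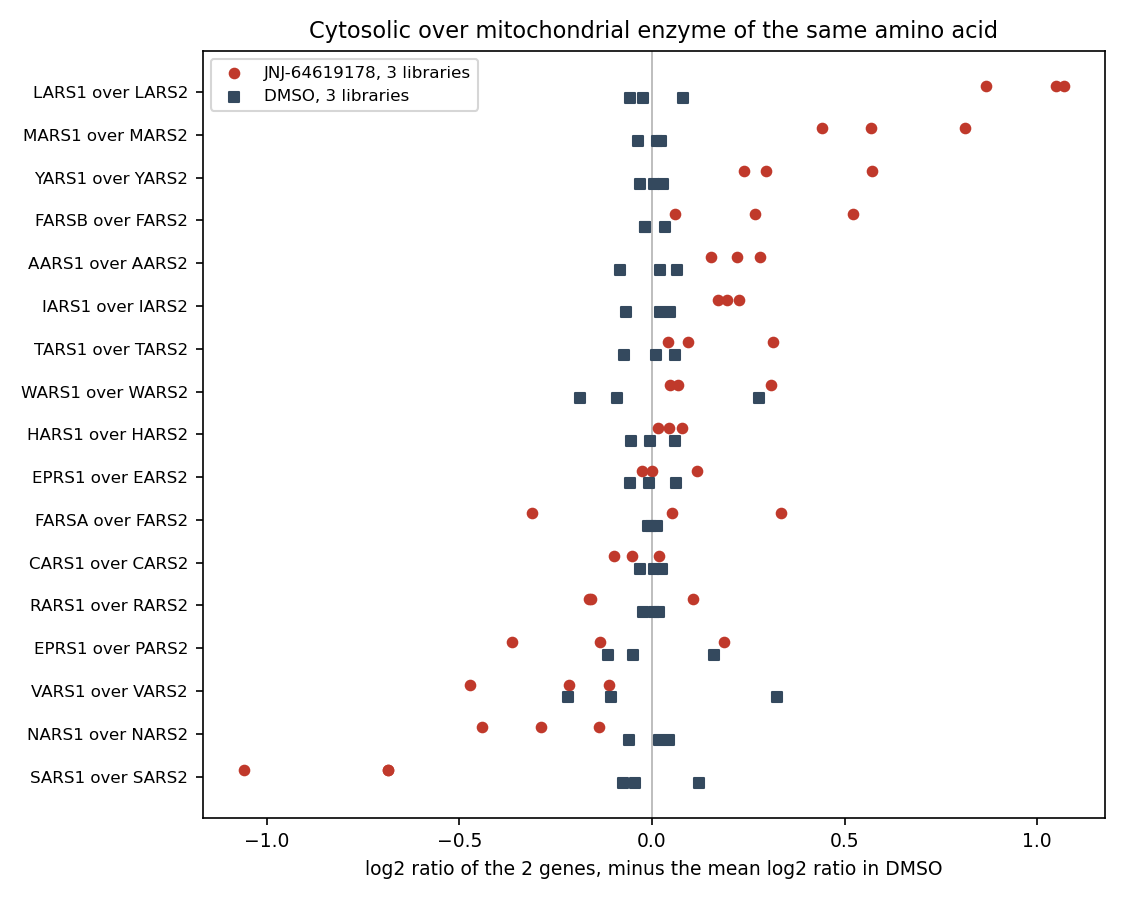
Each point is the log2 ratio of the cytosolic over the mitochondrial enzyme in 1 library, minus the mean log2 ratio in DMSO, for 17 pairs, with JNJ above DMSO in each row. The leucine pair lies highest with a difference of 0.99 and the serine pair lowest with -0.81.

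Genes around the synthetases were described by lists. Their counts stand beside 20.0% of all genes tested that rose and 17.1% that fell, or 16.1% and 23.6% with upper-quartile scaling. Of 35 tested genes of the amino acid response, the ATF4 program, 6 rose and 10 fell, with a median log2 change of -0.04, and with upper-quartile scaling 5 rose and 16 fell. DDIT3, a stress transcription factor, averaged 45.8 ± 3.36 CPM in JNJ and 64.3 ± 3.30 CPM in DMSO (SD, n = 3 each), a log2 change of -0.49. Its gene overlaps MARS1 on the opposite strand. PPP1R15A, which directs dephosphorylation of the initiation factor eIF2, fell by 0.41 on the log2 scale, the cystine transporter gene SLC7A11 fell by 0.27 and the transcription factor gene ATF3 rose by 0.39.

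Of 10 genes that sense uncharged tRNA or act on eIF2, 2 rose and 2 fell, with a median of 0.00, and with upper-quartile scaling 1 rose and 3 fell. GCN1, the activator of the kinase GCN2, averaged 219.9 ± 1.46 CPM in JNJ and 170.0 ± 1.63 CPM in DMSO (SD, n = 3 each) and rose by 0.37 on the log2 scale. EIF2S3, the gamma subunit of eIF2, fell by 0.20. EIF2AK4, the gene of GCN2, was at 0.15 with an adjusted p of 0.0434, and PPP1R15B at -0.14 with 0.0271, by edgeR's quasi-likelihood test. Without a single library these calls were lost, for EIF2AK4 without any library other than JNJ replicate 2 (0.051 to 0.219, the lowest without DMSO replicate 1 and the highest without DMSO replicate 2), and for PPP1R15B without DMSO replicate 1 (0.127), DMSO replicate 2 (0.0717) or JNJ replicate 2 (0.0931), as adjusted p of the same edgeR test. In all, the call of EIF2AK4 was lost in 11 of 13 alternatives, with an adjusted p of 0.10 by DESeq2, 0.0507 by limma-voom and, by the edgeR test, 0.0552 with relative log expression scaling, 0.228 with upper-quartile scaling, 0.123 without a filter and 0.0512 with the replicate block. The counts for this list accordingly went to 1 rise without any library other than JNJ replicate 2, and to 1 fall without JNJ replicate 2 or without either of the first DMSO libraries, replicate 1 and replicate 2.

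In the list of leucine sensing and mTORC1, which does not include LARS1, 6 of 24 tested genes rose and 2 fell, with a median of 0.04, and with upper-quartile scaling 4 rose and 4 fell. Its log2 changes ran from -0.62 to 0.86. WDR59 and SEH1L both encode subunits of GATOR2, the complex through which amino acids relieve inhibition of mTORC1. WDR59 was at 63.6, 68.8 and 65.0 CPM in JNJ and 36.5, 37.1 and 35.0 CPM in DMSO, a log2 rise of 0.86 without overlap, while SEH1L fell by 0.28. NPRL2, a subunit of the inhibitory GATOR1 complex, rose by 0.46 and AKT1S1, an mTORC1 inhibitor, by 0.38.

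The list of elongation factors counted 4 rises and 0 falls by edgeR's quasi-likelihood test among 12 tested genes, with a median of 0.09. DESeq2, limma-voom, relative log expression scaling and the fit without JNJ replicate 2 each called 1 lower, and upper-quartile scaling 2. The 4 that rose were EEF1A2 (0.63), a tissue-restricted form of the factor that delivers charged tRNA, the mitochondrial factors GUF1 (0.42) and TUFM (0.27), and EEF1D (0.21), a subunit of the exchange factor. EEF1G was listed at 0 in every library, and 99.9% of its exonic sequence is shared with another gene in GENCODE 29.

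Among 11 partners that finish tRNA charging, 1 rose and 3 fell, with a median of -0.05, and 1 rose and 1 fell by DESeq2. SEPSECS, which converts the seryl group that SARS1 loads into selenocysteine, was at 28.9, 24.6 and 28.0 CPM in JNJ and 15.5, 14.7 and 13.6 CPM in DMSO, a log2 rise of 0.90 with no overlap, beside the fall of SARS1. GATC, a subunit of the mitochondrial glutamyl-tRNA amidotransferase, was at -0.28 (adjusted p 0.00114). Its partner subunit GATB was at -0.29 (0.0391) and the selenophosphate synthetase gene SEPHS1 at -0.20 (0.029), all by edgeR's quasi-likelihood test. The call of GATB was lost without JNJ replicate 1 (adjusted p 0.101) or JNJ replicate 3 (0.13), and without DMSO replicate 1 (0.10) or DMSO replicate 3 (0.123), by the same edgeR test. That of SEPHS1 was lost without the same libraries, at adjusted p-values of 0.0734 and 0.057 for the JNJ libraries and 0.119 and 0.0744 for the DMSO libraries. The list counted 2 rises and 1 fall when JNJ replicate 3 was left out, and 1 fall when DMSO replicate 1 or DMSO replicate 3 was.

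Of 35 genes of tRNA maturation, 9 rose and 5 fell, with a median of 0.01, and with upper-quartile scaling 8 rose and 8 fell. Without DMSO replicate 1, DMSO replicate 3 or JNJ replicate 1 there were 3 falls. OSGEP, which modifies the base next to the anticodon of tRNAs that read codons starting with A, was at 70.6, 75.6 and 74.9 CPM in JNJ and 36.8, 39.2 and 35.9 CPM in DMSO, a log2 rise of 0.98. ADAT2, the catalytic subunit of the tRNA adenosine deaminase of the wobble base, was at 13.3, 14.1 and 14.9 CPM in JNJ and 28.4, 28.3 and 26.8 CPM in DMSO, a fall by 0.98 on the log2 scale. Neither gene's groups overlapped. TRNT1, which adds the terminal CCA to which the amino acid is joined, fell by 0.45, and the tRNA cytosine methyltransferase gene NSUN2 rose by 0.29.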

How the data were processed

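RNA-seq libraries of HuCCT-1 cells, 3 treated with JNJ-64619178 and 3 with DMSO, were made with a stranded poly(A) kit per the labels' protocols. The authors deposited raw read counts per Ensembl gene. The submitters' processing notes name limma, edgeR, featureCounts 1.6.0, the aligner STAR 2.7.9a and FastQC 0.11.8 without stating settings, and the mouse build GRCm39, although the row identifiers are human. The sources used here do not give the annotation release or the strand and multimapping settings. Totals ranged from 23931991 to 30691914 counts.

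The table has 60649 rows, of which 44 repeated identifiers, all at 0, were dropped. Symbols were matched for 60463 genes. The members and the gene lists were chosen with earlier results of these data known. The named genes are all 38 members, the 4 genes of smallest p in each list, and PRMT5, with cell type markers named to describe the cells. EEF1G was singled out after its values were seen. Genes were kept by filterByExpr (minimum count 10, total 15), scaled by TMM and tested with edgeR 4.0.16 (glmQLFit, glmQLFTest) under R 4.3.3 with Benjamini-Hochberg adjustment over 17371 genes. As alternatives, limma-voom (limma 3.58.1), DESeq2 1.42.0, other scalings and filters, the replicate number as a block, and leaving out each library were run. The procedure was tested on simulated data with 50 changed genes of each size. The edgeR test recovered 13 of 50 at 1.2-fold, 28 at 1.5-fold, 40 at 2-fold and 46 at 3-fold. Far fewer genes were changed in the simulation than were called here, so these shares need not hold for these data. A gene that did not pass is not shown to be unchanged. No replicate libraries were duplicates, since chi-square divided by its degrees of freedom was 2.56 to 8.09 between them.

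Gene positions and shared exons come from GENCODE 29, not from the files, and promoter windows from RefSeq (GRCh38.p14). The motifs were chosen with the values known. Pair ratios were tested by exact permutation with SciPy 1.17.1.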

Additional observations from a re-analysis of the deposited data

How the results depend on the processing

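Over 13 alternatives and 38 genes, 471 of 494 values kept their side of the threshold, 12 were no longer past it, 11 newly passed and 0 called values changed sign. Of the 15 called genes, 11 passed in all 13 alternatives, and FARSB, IARS1, WARS1 and SARS2 did not. Upper-quartile scaling mattered most: it gave 10 genes higher and 10 lower, where 86.7% of the calls among these genes were higher with TMM (over all genes 40.6% with upper-quartile scaling and 53.9% with TMM), and the median log2 change of the cytosolic enzymes was 0.073. Without single libraries that median ranged from 0.10 to 0.15, and 10 to 13 genes were higher and 2 to 3 lower. With the replicate block 12 genes were higher and 2 lower, IARS1 being lost. The replicate numbers do not pair the libraries: correlations of same-numbered deviations were -0.0184, -0.0144 and 0.00193, and 0 of 6 libraries correlated best with their own number. The pair ratios moved by less than the replicate SD without any single library. With 3 libraries per group, leaving out 1 cannot move a mean further than that, so these shifts do not test how stable the ratios are. With upper-quartile scaling 16 genes of the amino acid response were lower (10 with TMM), 8 of tRNA maturation (5), 4 of leucine sensing (2) and 2 elongation factors (0), and DESeq2 called 1 charging partner lower (3 with edgeR). Low counts limit SARS2 and VARS2, and 3 libraries per group limit the pair tests.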
